A study of Mus musculus with 18 samples.

Results

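PANDORA-seq and traditional-seq were compared within each mouse, and the result was compared between the high-cholesterol diet (HCD) and the low-cholesterol diet (LCD). For each small RNA and mouse, the level in the traditional-seq library, as log2(RPM + 1), was subtracted from the level in the PANDORA-seq library of the same liver RNA, where RPM is the reads of an RNA scaled to a fixed library total. A positive within-mouse difference means a higher level after the enzyme treatment, and it was compared between 4 HCD-fed mice and 5 LCD-fed mice. Of the 1234 RNAs in the table, the 365 with at least 1 RPM in at least 4 of the 18 libraries were tested: 281 miRNAs, 51 families of cytosolic tRNA-derived small RNAs (tsRNAs), 22 mitochondrial tsRNAs, 8 ribosomal RNAs with their fragments (rsRNAs), 2 Y RNAs (ysRNAs) and 1 piRNA entry. This filter does not use the diet. Another 17 RNAs reached 1 RPM in 3 libraries, just outside the filter, and 14 of those tested reached it in exactly 4.

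The mice were wild-type C57BL/6 males by the study's account, 8 weeks old at the start. The HCD group (mice 15, 16, 17 and 18) was fed 0.5% cholesterol and the LCD group (mice 1, 2, 3, 4 and 5) 0.02% cholesterol. The sources give the feeding time as 4, 8 or 9 weeks, so it is not fixed here. Whole liver was taken, and in such bulk tissue fewer cells of a type and less RNA per cell cannot be told apart. Values of the HCD-fed mice are given in the order 15, 16, 17 and 18, and those of the LCD-fed mice in the order 1, 2, 3, 4 and 5.

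A small RNA enters a sequencing library only if adapters can be joined to both of its ends and reverse transcriptase can read through it. Many fragments of tRNA and rRNA carry a phosphate or cyclic phosphate at the 3′ end, or lack the 5′ phosphate, and the kinase T4PNK repairs such ends. Many also carry methyl groups on the base-pairing face, such as 1-methyladenosine, 1-methylguanosine and 3-methylcytidine, which stop reverse transcriptase and which the demethylase AlkB removes. PANDORA-seq applies both enzymes before library construction and traditional-seq applies neither, so the difference between them in 1 mouse shows how far detection depends on the enzymes. miRNAs leave the nuclease Dicer with ends that join to adapters without repair. RPM is a share of each library, so when more of 1 class is captured, the RPM of the others falls.

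The let-7 miRNAs, a family known for restraining growth, carried many of the calls described below, and their mature 5′ sequences are shown because they differ in few letters and share reads in part. The seed, bases 2 to 8, is in capitals (RefSeq, GRCm38.p6).
let-7b: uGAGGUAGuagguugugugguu
let-7c-1: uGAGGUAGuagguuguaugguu
let-7a-1: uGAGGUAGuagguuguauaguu
let-7g: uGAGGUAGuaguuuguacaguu
let-7i: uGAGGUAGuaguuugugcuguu

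The mature let-7b lies at chr15:85707325-85707346 on the + strand, in an exon of the long noncoding gene Lncppara, which also holds let-7c-2 (chr15:85706616-85706637 on the + strand). let-7c-1 lies at chr16:77599672-77599693 on the + strand in an intron of Mir99ahg, and let-7a-1 at chr13:48538239-48538260 on the - strand in an exon of the lincRNA 6720427I07Rik. let-7g lies at chr9:106178846-106178867 on the + strand in an intron of Wdr82, and let-7i at chr10:122985698-122985719 on the - strand in an exon of D630033A02Rik. Of the 281 tested miRNA entries, 243 matched a mature RefSeq sequence by name, and the seed GAGGUAG was shared by 12 of them. The table gives 1 value per precursor, in which its arms are not separated. The miRNA entries that were lower on the HCD have different seeds, apart from the copies of miR-3084. Their sequences are shown because all but that of miR-6236 were found within other transcripts, as described with their values.
miR-690: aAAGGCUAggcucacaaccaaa
miR-3470b: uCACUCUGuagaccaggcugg
miR-6516: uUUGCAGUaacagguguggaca
miR-682: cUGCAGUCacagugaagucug
miR-6236: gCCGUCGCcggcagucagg
miR-3084-1: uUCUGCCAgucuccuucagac

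All 18 libraries were used, and none had the same values as another. Read totals, inferred from the RPM value of 1 read, ranged between 1934330 and 25488292 per library. In HCD-fed mice 15 and 17 the traditional-seq library was 7.14 and 5.95 times as deep as the PANDORA-seq library, while in the other 7 mice this ratio lay between 0.683 and 2.81. The depth ratio did not separate the diets (two-sided exact permutation test, p = 0.167). Counts without these mice are given for all RNAs and for the larger classes, and values for some of the RNAs named. The listed RNAs held 777471 to 958480 RPM. miR-122, a marker of hepatocytes, had the highest mean of the miRNAs over all libraries, as the liver label gives. miR-148a, also abundant in liver, lay above it in some libraries, such as PANDORA-seq of HCD-fed mouse 16 (45575 against 29874 RPM). Each mouse is a separate animal by the study's methods.

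The within-mouse difference was called higher on the HCD for 66 RNAs and lower for 16 (limma, adjusted p under 0.05 over 365 RNAs), which is 18.1% and 4.38% of those tested and 22.5% in all. Without HCD-fed mice 15 and 17 the counts were 28 higher and 6 lower, and with the depth ratio as a covariate 28 and 7. The difference was positive for 300 RNAs and negative for 65. The median difference over all RNAs depends on the scaling: on the deposited scale it was 0.59, relative to all listed RNAs 0.56, with TMM scaling (a trimmed mean of the RNAs) 0.33, with each mouse centred on its own median −0.20 and with scaling by miRNA reads −0.67, all as log2 differences. With each mouse centred, 6 RNAs were higher (1.64%) and 19 lower (5.21%), and with scaling by miRNA reads 1 was higher and 37 were lower. Each scaling moves the RNAs of a mouse together, so these counts follow the shift of the median and are not a separate result. The HCD and LCD mice did not overlap for 61 of the 365 RNAs (16.7%). Several entries hold nearly the same reads, such as the 3 Pro anticodons and the copies of let-7a, and merging those with a mean of at least 10 RPM whose profiles over the libraries agreed within 0.1 on the log2 scale left 60 higher and 16 lower.

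Among the called RNAs, the library type with the larger diet difference (HCD minus LCD) differed between the directions. A call requires the diet difference in PANDORA-seq to exceed that in traditional-seq, or the reverse, so the call itself favours opposite signs. The counts by library type therefore describe called RNAs only. Over all 365 RNAs tested, the median diet difference was 0.03 in PANDORA-seq and −0.51 in traditional-seq on the log2 scale. Of the 66 higher RNAs, 46 had a higher mean in PANDORA-seq and a lower mean in traditional-seq on the HCD than on the LCD, 17 had lower means in both and 3 higher means in both. Traditional-seq held the larger diet difference for 12 of the 13 cytosolic tsRNAs and for 3 of the 3 mitochondrial tsRNAs that were higher, and PANDORA-seq held it for 29 of the 50 miRNAs. Of the 16 lower RNAs, PANDORA-seq held the larger diet difference for 13. For most RNAs the sign was the same in each mouse: the within-mouse difference was above 0 in all 9 mice for 51 RNAs and below 0 in all 9 for 211, of which 210 were miRNAs. The sign was positive in all HCD-fed and negative in all LCD-fed mice for tsRNA-Ala-CGC alone, and the reverse held for miR-6236 alone.

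**Figure D1:**
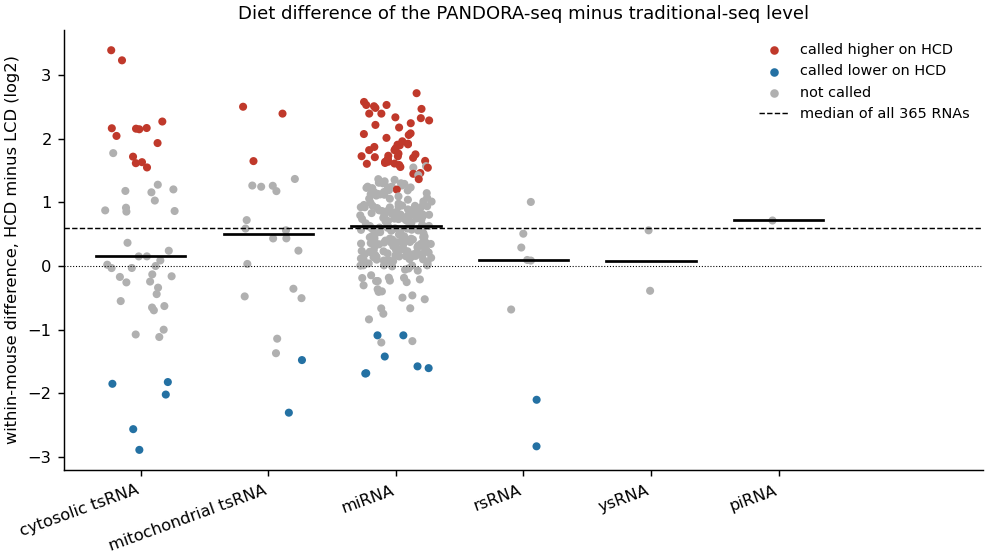
Each point is 1 of the 365 tested RNAs, by class, and the y axis is the mean within-mouse difference (PANDORA-seq minus traditional-seq, log2(RPM + 1)) of HCD-fed mice minus that of LCD-fed mice. Red points were called higher (66), blue points lower (16), black bars are class medians (0.15 for cytosolic tsRNAs, 0.63 for miRNAs), and the dashed line is the median of all RNAs, 0.59.

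By class, the PANDORA-seq to traditional-seq ratio of summed RPM was higher on the HCD than on the LCD for cytosolic tsRNAs and for miRNAs. These sums are shares of a library, and the gain of cytosolic tsRNA over miRNA, given below, differed by 0.00 between the diets. The log2 ratio of the summed cytosolic tsRNA level in PANDORA-seq to that in traditional-seq was 3.58, 2.25, 4.05 and 2.83 in HCD-fed mice, against 1.49, 0.69, 1.68, 2.24 and 1.45 in LCD-fed mice. The means were 3.18 ± 0.80 on the HCD and 1.51 ± 0.56 on the LCD (SD, n = 4 and n = 5). The difference was 1.67 and the mice did not overlap (two-sided exact permutation test, p = 0.00794, adjusted p = 0.0185 over 7 classes). This p is the smallest that 4 against 5 mice allow. The cytosolic tsRNAs summed to 122397 ± 24492 RPM on the HCD and 201033 ± 57557 RPM on the LCD in PANDORA-seq. In traditional-seq they summed to 14745 ± 6756 RPM on the HCD and 68412 ± 7274 RPM on the LCD, so the larger diet difference stood in traditional-seq. For the summed miRNAs the log2 ratio was −3.61, −2.75, −2.43 and −3.22 in HCD-fed mice, against −4.04, −5.15, −3.91, −4.93 and −5.30 in LCD-fed mice. It differed by 1.66 (exact permutation test, p = 0.0159, adjusted p = 0.0278), again without overlap. The miRNAs summed to 86372 ± 34798 RPM on the HCD and 27596 ± 13296 RPM on the LCD in PANDORA-seq. In traditional-seq they summed to 662385 ± 106947 RPM on the HCD and 638942 ± 27213 RPM on the LCD, so here the larger diet difference stood in PANDORA-seq. The miRNA call was lost when HCD-fed mouse 16, 17 or 18 was left out (1.58, 1.47 and 1.74, adjusted p = 0.05, 0.0625 and 0.0625 by the exact permutation test). Both calls were lost when any LCD-fed mouse was left out (1.46 to 1.85 for cytosolic tsRNAs and 1.50 to 1.85 for miRNAs, adjusted p = 0.05 each by the exact permutation test), where each p is 0.0286, the smallest that 4 against 4 mice allow.

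The remaining classes gave smaller differences. The piRNA entry had a log2 ratio of 0.77 ± 0.43 on the HCD and 0.04 ± 0.12 on the LCD (SD, n = 4 and n = 5), a difference of 0.73 with no overlap (exact permutation test, adjusted p = 0.0185). Mitochondrial tsRNAs had 0.30 ± 0.78 on the HCD and −0.94 ± 0.66 on the LCD (SD, n = 4 and n = 5), a difference of 1.24 that did not pass (exact permutation test, adjusted p = 0.0667). rsRNAs had 1.42 ± 0.54 on the HCD and 1.46 ± 0.14 on the LCD (difference −0.04, exact permutation test, adjusted p = 0.825; SD, n = 4 and n = 5). ysRNAs had 1.01 ± 0.52 on the HCD and 1.20 ± 0.41 on the LCD (−0.19, exact permutation test, adjusted p = 0.630; SD, n = 4 and n = 5). All listed RNAs together differed by 0.11 (exact permutation test, adjusted p = 0.0185), with −0.15 ± 0.03 on the HCD and −0.26 ± 0.02 on the LCD (SD, n = 4 and n = 5), which is the part of the reads assigned to any of them. Without HCD-fed mice 15 and 17, the differences were 1.03 for cytosolic tsRNAs, 1.68 for miRNAs and 0.46 for the piRNA entry, in a design of 2 against 5 mice that cannot pass. The piRNA and all-RNA calls were also lost when any LCD-fed mouse was left out (0.69 to 0.77 for the piRNA entry and 0.11 in each fit for all RNAs, adjusted p = 0.05 by the exact permutation test), again at the smallest p of that design, 0.0286.

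**Figure D2:**
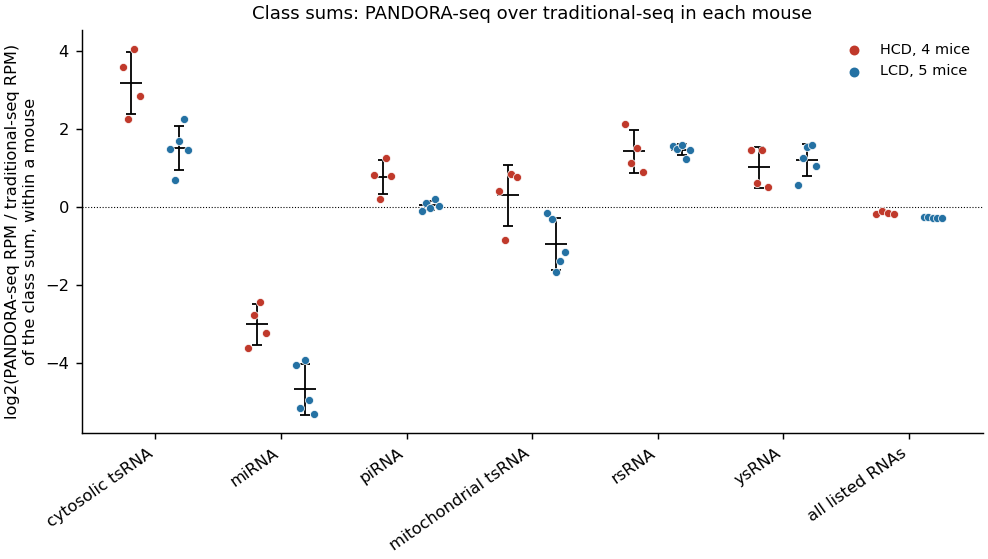
Each point is 1 mouse (red, 4 HCD-fed; blue, 5 LCD-fed), and the y axis is the log2 ratio of the class sum in PANDORA-seq to that in traditional-seq, with the mean and SD in black. The HCD-fed mice lie above the LCD-fed mice for cytosolic tsRNAs (2.25 to 4.05 against 0.69 to 2.24), miRNAs (−3.61 to −2.43 against −5.30 to −3.91) and the piRNA entry (0.21 to 1.25 against −0.10 to 0.20), while rsRNAs overlap.

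Ratios between classes do not depend on how a library is scaled. The gain of cytosolic tsRNA over miRNA by the enzymes was 6.18 ± 0.92 on the HCD and 6.18 ± 0.74 on the LCD (SD, n = 4 and n = 5) on the log2 scale, a difference of 0.00 (two-sided exact permutation test, p = 1.0). The gain of rsRNA over miRNA was 4.42 ± 0.89 on the HCD and 6.13 ± 0.58 on the LCD (SD, n = 4 and n = 5). The difference was −1.71 (exact permutation test, p = 0.0317, adjusted p = 0.0476 over 3 ratios), and the mice overlapped through HCD-fed mouse 15 at 5.75. The gain of cytosolic tsRNA over rsRNA was 1.45, 1.13, 2.53 and 1.92 in HCD-fed mice, against −0.07, −0.78, 0.10, 1.0 and −0.01 in LCD-fed mice, a difference of 1.71 without overlap (exact permutation test, p = 0.0159, adjusted p = 0.0476). Both of these calls were lost when any mouse but HCD-fed mouse 15 was left out (adjusted p between 0.0536 and 0.129 by the exact permutation test), with values between −1.86 and −1.52 and between 1.45 and 1.95. For the gain of cytosolic tsRNA over rsRNA each p was then the smallest possible, 0.0179 for 3 against 5 mice and 0.0286 for 4 against 4, so this loss follows from the number of mice. For the gain of rsRNA over miRNA it was above that. With the median over the RNAs of a class in place of its sum, the 3 differences were −0.61, −0.47 and −0.14, so the gain of cytosolic tsRNA over rsRNA turned.

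Among the 51 cytosolic tsRNA families, 13 were higher on the HCD (25.5%, against 18.1% of all RNAs tested) and 5 lower (9.80%, against 4.38%), with a median difference of 0.15. With each mouse centred, 2 were higher and 7 lower, and with scaling by miRNA reads 1 was higher and 16 lower. Without HCD-fed mice 15 and 17, 3 of the 13 (His-GTG, Ala-CGC and Arg-TCT) and 3 of the 5 (Val-TAC, Met-CAT and Trp-CCA) kept their calls. A family is named by its amino acid and anticodon, and all fragments of its tRNAs are summed in 1 value. tsRNA-His-GTG, from 10 genes of the tRNA that decodes histidine codons, had the largest difference and was the only RNA called higher under each of the 5 scalings. tsRNA-His-GTG had 27845, 30245, 27139.8 and 18593 RPM in PANDORA-seq of HCD-fed mice, against 14579, 8089, 14713, 6914 and 5986 RPM in PANDORA-seq of LCD-fed mice. The traditional-seq libraries held 495, 744, 217 and 539 RPM in HCD-fed mice, against 1809.9, 2179.7, 1307, 1207 and 2651 RPM in LCD-fed mice. The diets moved apart in opposite directions in the 2 library types, and in each of them the mice did not overlap. The within-mouse difference was 5.81, 5.34, 6.96 and 5.11 in HCD-fed mice, against 3.01, 1.89, 3.49, 2.52 and 1.17 in LCD-fed mice, with means of 5.81 ± 0.82 on the HCD and 2.42 ± 0.91 on the LCD (SD, n = 4 and n = 5). It was higher on the HCD by 3.39 (standard error 0.52, 95% interval 2.34 to 4.43, limma adjusted p = 3.21e-05), and by 2.81 without HCD-fed mice 15 and 17 (limma adjusted p = 0.00525).

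tsRNA-Ala-CGC, from 9 genes of a tRNA that decodes alanine codons, was the only family positive in each HCD-fed mouse and negative in each LCD-fed mouse. Other families turned in the sign of their means, which lay above 0 for 51 families on the HCD and 45 on the LCD. Among them were Gly-GCC (0.49 on the HCD and −1.22 on the LCD) and Gly-CCC (0.69 on the HCD and −1.25 on the LCD). tsRNA-Ala-CGC had 570.1, 369, 592 and 624 RPM in PANDORA-seq of HCD-fed mice, against 317, 114, 346, 568 and 244 RPM in PANDORA-seq of LCD-fed mice. Its traditional-seq level was 145, 248, 67.1 and 127 RPM in HCD-fed mice, against 532, 535, 996, 819 and 558 RPM in LCD-fed mice. Its within-mouse difference was 1.97, 0.57, 3.12 and 2.29 in HCD-fed mice, against −0.75, −2.22, −1.52, −0.53 and −1.19 in LCD-fed mice, so the enzymes gained reads in each HCD-fed mouse and lost them in each LCD-fed mouse on the RPM scale. The difference of 3.23 (standard error 0.54, limma adjusted p = 7.45e-05) stood mainly in traditional-seq, where the HCD level lay −2.32 from the LCD level on the log2 scale, against 0.91 in PANDORA-seq. It was 2.67 without HCD-fed mice 15 and 17 (limma adjusted p = 0.0157), and 1.57 with scaling by miRNA reads, where it did not pass (limma adjusted p = 0.0851). tsRNA-Ala-TGC, of the same amino acid, had a smaller difference of 1.62 (limma adjusted p = 0.0314), with overlap through HCD-fed mouse 16.

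**Figure D3:**
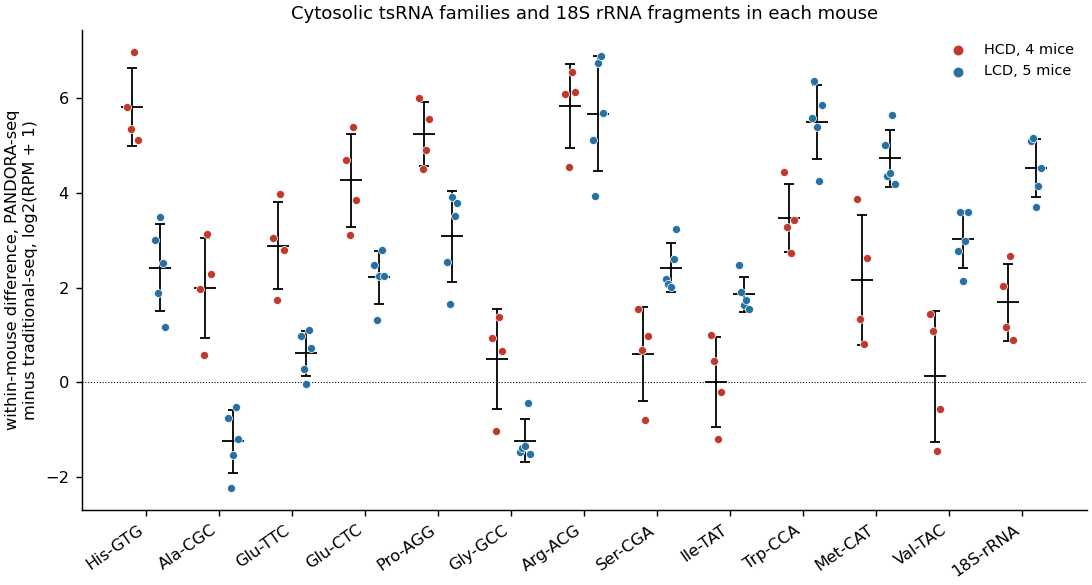
Each point is the within-mouse difference, PANDORA-seq minus traditional-seq in log2(RPM + 1), of 1 mouse (red, 4 HCD-fed; blue, 5 LCD-fed), with the mean and SD in black. The HCD-fed mice lie above the LCD-fed mice for His-GTG, Ala-CGC, Glu-TTC, Glu-CTC and Pro-AGG, and below them for Ser-CGA, Ile-TAT, Met-CAT, Val-TAC and 18S rRNA fragments, while Arg-ACG overlaps (5.82 ± 0.88 on the HCD and 5.67 ± 1.21 on the LCD) and turns negative in its diet difference with TMM scaling, centring or scaling by miRNA reads.

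Fragments of Glu and Gly tRNAs are known as abundant products of cleavage in the anticodon loop, and 5 of the 5 families on this list were higher on the HCD, against 18.1% of all RNAs tested, with a median of 1.93. None of the 5 passed with each mouse centred (median 1.14) or with scaling by miRNA reads (median 0.27, with Gly-TCC negative at −0.02), and 1 passed with the depth ratio as a covariate (median 1.28). tsRNA-Glu-CTC, the most abundant tsRNA, stems from 12 tRNA genes on 8 chromosomes. tsRNA-Glu-CTC had 76003, 40242, 50234 and 44280.1 RPM in PANDORA-seq of HCD-fed mice, against 114428, 64242, 153162, 203610.0 and 125094 RPM in PANDORA-seq of LCD-fed mice. Traditional-seq read 2955, 4652, 1205 and 3064 RPM in HCD-fed mice, against 20461, 25873, 32549, 29502 and 26234 RPM in LCD-fed mice. Its mean was lower on the HCD in both library types, without overlap in traditional-seq alone, and by more in traditional-seq (log2 −3.32) than in PANDORA-seq (−1.27). Its within-mouse difference was therefore higher on the HCD, with 4.68, 3.11, 5.38 and 3.85 in HCD-fed mice, against 2.48, 1.31, 2.23, 2.79 and 2.25 in LCD-fed mice, and the mice did not overlap. The difference was 2.04 (standard error 0.48, 95% interval 1.08 to 3.01, limma adjusted p = 0.00319), and 1.27 without HCD-fed mice 15 and 17 (limma adjusted p = 0.105). Set against miR-122 in the same libraries, the gain by the enzymes was 7.31 ± 1.1 on the HCD and 7.04 ± 0.74 on the LCD (SD, n = 4 and n = 5). This is a difference of 0.28 (two-sided exact permutation test, p = 0.643). Against the summed miRNAs the difference was 0.38 (exact permutation test, p = 0.516).

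A 3′ fragment of tRNA-Glu-CTC from the study's list of sequences is shown because it holds a site that AlkB can act on, the T loop, whose adenosine is often 1-methyladenosine in cytosolic tRNAs. The letters GGTTCGANNCC, searched on the strand shown, are in capitals. Among the 22 mitochondrial tRNA genes 1 holds these letters (4.55%), mt-Ser-TGA. Fragments of the 5′ end do not hold this loop, and the study reports that the abundant species of this family came mostly from that end. In the tsRNA isolated from liver, its mass spectrometry found dihydrouridine and a methylated guanosine that AlkB left in place. The shown fragment therefore does not stand for most reads of the family. The table sums both kinds in 1 value, so the exact share that holds the loop was not measured here.
tRNA-Glu-CTC 3′ fragment: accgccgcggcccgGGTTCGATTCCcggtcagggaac

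tsRNA-Glu-TTC, similar in sequence to tsRNA-Glu-CTC, had 3.04, 1.73, 3.97 and 2.79 in HCD-fed mice, against 0.97, 0.29, −0.02, 1.1 and 0.73 in LCD-fed mice, without overlap (difference 2.27, limma adjusted p = 0.00168). tsRNA-Gly-GCC had 5360.3 ± 2353 RPM on the HCD and 10281 ± 1908 RPM on the LCD in PANDORA-seq (SD, n = 4 and n = 5). In traditional-seq it had 4368 ± 3054 RPM on the HCD and 24356 ± 6284 RPM on the LCD (SD, n = 4 and n = 5). The within-mouse difference of Gly-GCC was 0.95, −1.01, 1.37 and 0.67 in HCD-fed mice, against −1.46, −1.38, −1.34, −0.43 and −1.51 in LCD-fed mice, where HCD-fed mouse 16 fell among the LCD-fed mice (difference 1.72, limma adjusted p = 0.00943, and 1.43 with adjusted p = 0.0510 without HCD-fed mouse 17). tsRNA-Gly-CCC, which can share reads with it, differed by 1.93, and tsRNA-Gly-TCC by 1.63 (limma adjusted p = 0.00609 and 0.0238). On the LCD, traditional-seq read more of Gly-GCC and Gly-CCC than PANDORA-seq in each of the 5 mice, and on the HCD in mouse 16 alone.

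The 3 Pro families carry 1-methylguanosine beside the anticodon, as tRNAs for Leu with CAG, AAG or TAG anticodons do, and of these 6 families 3 were higher (50.0%, against 18.1% of all RNAs tested) and 0 lower, with a median of 1.68. None was higher with each mouse centred (median 0.88), with scaling by miRNA reads (median 0.02, 3 of 6 negative) or with the depth ratio as a covariate (median 1.27). tsRNA-Pro-AGG had 5.99, 4.50, 4.90 and 5.55 in HCD-fed mice, against 2.54, 1.66, 3.90, 3.51 and 3.77 in LCD-fed mice, without overlap (difference 2.16, limma adjusted p = 0.00397). Pro-TGG (2.16) and Pro-CGG (2.15) had nearly the same values, so the 3 count as 1 observation. None of the 3 passed without HCD-fed mice 15 and 17 (1.94 for Pro-AGG, limma adjusted p = 0.0675). The Leu families did not pass: Leu-AAG differed by 1.20 (95% interval 0.07 to 2.34) and Leu-CAG by −1.0 (95% interval −2.19 to 0.19), where HCD-fed mouse 18 alone had a negative within-mouse difference, −0.47. The families with 3-methylcytidine in the anticodon loop, from Arg, Ser and Thr, had 2 of 9 higher (22.2%) and 1 lower (11.1%), near the 18.1% and 4.38% of all RNAs tested, with a median of −0.03. tsRNA-Arg-TCT of this list had 4.72, 4.01, 4.39 and 6.46 in HCD-fed mice, against 2.93, 1.16, 3.22, 3.33 and 2.99 in LCD-fed mice (difference 2.17, limma adjusted p = 0.00609). tsRNA-Arg-CCT differed by 1.55 (limma adjusted p = 0.0256), and tsRNA-Thr-TGT by 0.92 (limma adjusted p = 0.205).

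Of the 4 families whose tRNAs carry queuosine in the anticodon, His-GTG was higher (25.0%, against 18.1% of all RNAs tested) and the others did not pass, with a list median of −0.01, or −0.80 with each mouse centred and −1.67 with scaling by miRNA reads. Asp-GTC differed by 0.15 (95% interval −1.11 to 1.41) and Tyr-GTA by −0.65 (95% interval −1.67 to 0.37). Tyr-GTA was called lower with centring (−1.44, limma adjusted p = 0.0364) and with scaling by miRNA reads (−2.31, adjusted p = 0.00458). Among the 9 families with a long variable arm, from Leu and Ser tRNAs, 0 were higher and 1 was lower (11.1%, against 4.38% of all RNAs tested). Of the Arg families 2 of 5 were higher (40.0%, against 18.1%; median 0.85), and 0 with each mouse centred (median 0.06), with scaling by miRNA reads (−0.77) or with the depth covariate (0.04). Of the Val and Lys families 0 of 5 were higher and 1 of 5 lower, against 4.38% of all RNAs tested (median −0.24). Lys-TTT differed by 1.77 and Lys-CTT by 0.86, with limma adjusted p = 0.0618 and 0.273. Families that gained strongly from the enzymes on both diets could lie among those that did not pass: the within-mouse difference of Ser-GCT was 6.43 ± 0.87 on the HCD and 6.43 ± 0.45 on the LCD (SD, n = 4 and n = 5). That of Arg-CCG was 5.51 ± 1.24 on the HCD and 5.54 ± 0.51 on the LCD (SD, n = 4 and n = 5). The 95% intervals of these differences, −1.07 to 1.07 and −1.16 to 1.1, still hold a change of 1 on the log2 scale in either direction. Gln-CTG varied little, with 2.10, 1.58, 1.32 and 1.25 in HCD-fed mice, against 1.64, 1.62, 1.80, 1.76 and 1.64 in LCD-fed mice (difference −0.13, 95% interval −1.09 to 0.83).

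The 5 families that were lower on the HCD, Val-TAC, Met-CAT, Trp-CCA, Ile-TAT and Ser-CGA, were lower under each of the 5 scalings. tsRNA-Val-TAC stems from 3 genes of a tRNA for valine. tsRNA-Val-TAC had 113, 78.5, 18.9 and 65.7 RPM in PANDORA-seq of HCD-fed mice, against 457, 833, 315, 493 and 801 RPM in PANDORA-seq of LCD-fed mice. In traditional-seq it had 40.8, 36.5, 53.5 and 97.9 RPM in HCD-fed mice, against 66.3, 68.1, 70.5, 61.3 and 65.9 RPM in LCD-fed mice. In PANDORA-seq each HCD-fed mouse lay below each LCD-fed mouse, while in traditional-seq the mice overlapped. Its within-mouse difference was 1.45, 1.09, −1.45 and −0.57 in HCD-fed mice, against 2.77, 3.59, 2.14, 2.99 and 3.58 in LCD-fed mice (difference −2.89, standard error 0.57, limma adjusted p = 0.000848; −2.76 without HCD-fed mice 15 and 17, adjusted p = 0.0157). tsRNA-Met-CAT, from 16 genes of the tRNAs that decode AUG, had 265, 97.0, 23.2 and 218 RPM in PANDORA-seq of HCD-fed mice, against 2133, 2268, 1330.2, 3322 and 1701 RPM in PANDORA-seq of LCD-fed mice. In traditional-seq it had 17.3, 37.9, 12.8 and 34.4 RPM in HCD-fed mice, against 65.7, 110.0, 61.8, 65.4 and 92.2 RPM in LCD-fed mice, so it was lower on the HCD in both library types and by more in PANDORA-seq (log2 −4.24, against −1.68 in traditional-seq). The within-mouse difference of Met-CAT was 3.86, 1.33, 0.81 and 2.63 in HCD-fed mice, against 5.0, 4.35, 4.41, 5.64 and 4.19 in LCD-fed mice, without overlap (difference −2.56, limma adjusted p = 0.00188).

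tsRNA-Trp-CCA had 4.44, 3.27, 2.72 and 3.42 in HCD-fed mice, against 5.57, 6.35, 5.39, 4.24 and 5.85 in LCD-fed mice, where HCD-fed mouse 15 and LCD-fed mouse 4 overlapped (difference −2.02, limma adjusted p = 0.0059). It had a higher mean on the HCD in traditional-seq (log2 1.07) and a lower one in PANDORA-seq (−0.95). tsRNA-Ile-TAT, from 1 gene, had 1.0, 0.45, −1.20 and −0.21 in HCD-fed mice, against 2.48, 1.91, 1.63, 1.73 and 1.55 in LCD-fed mice (difference −1.85, limma adjusted p = 0.0116), nearly all of it in PANDORA-seq. tsRNA-Ser-CGA had 1.54, 0.68, −0.80 and 0.97 in HCD-fed mice, against 2.18, 2.08, 2.01, 2.59 and 3.24 in LCD-fed mice (difference −1.82, limma adjusted p = 0.0147). Both lost the call without HCD-fed mouse 17 (−1.44, adjusted p = 0.0924, and −1.35, adjusted p = 0.121, by limma), and Ser-CGA also without LCD-fed mouse 5 (−1.62, adjusted p = 0.0577). Without HCD-fed mice 15 and 17, Val-TAC, Met-CAT and Trp-CCA kept their calls and Ile-TAT and Ser-CGA did not.

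**Figure D4:**
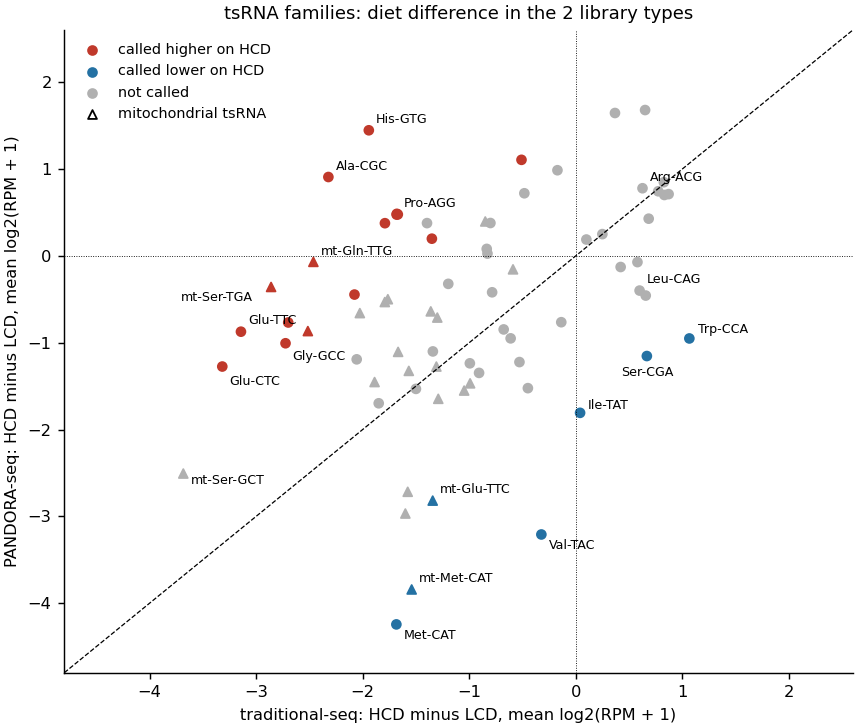
Each point is a tsRNA family (circles, cytosolic; triangles, mitochondrial), with the HCD minus LCD difference of the mean log2(RPM + 1) in traditional-seq on the x axis and in PANDORA-seq on the y axis. Points above the dashed line of equal change have a higher within-mouse difference on the HCD, such as His-GTG (−1.94 and 1.45) and Glu-CTC (−3.32 and −1.27), and points below it a lower one, such as Val-TAC (−0.32 and −3.21) and Met-CAT (−1.68 and −4.24); red and blue points passed the test.

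Mitochondrial tRNAs are encoded on both strands of the mitochondrial genome and serve its own ribosomes. Of the 22 mitochondrial tsRNAs, 3 were higher on the HCD (13.6%, against 18.1% of all RNAs tested) and 2 lower (9.09%, against 4.38%), with a median of 0.50. With each mouse centred, 0 were higher and 2 lower, and without HCD-fed mice 15 and 17 mt-Ser-TGA, mt-Gln-TTG and mt-Met-CAT kept their calls. The genes of these 5 are shown in their own orientation with base 9 in capitals, since an A or G there is methylated in many mitochondrial tRNAs and AlkB can remove that group (GRCm38).
mt-Ser-TGA (chrM:6870-6938, - strand): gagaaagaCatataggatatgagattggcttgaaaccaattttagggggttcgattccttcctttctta
mt-Gln-TTG (chrM:3772-3842, - strand): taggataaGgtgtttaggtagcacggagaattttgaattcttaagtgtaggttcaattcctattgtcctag
mt-Ala-TGC (chrM:5018-5086, - strand): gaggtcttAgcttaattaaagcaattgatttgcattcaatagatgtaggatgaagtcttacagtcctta
mt-Glu-TTC (chrM:14071-14139, - strand): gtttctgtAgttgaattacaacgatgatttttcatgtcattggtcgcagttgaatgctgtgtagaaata
mt-Met-CAT (chrM:3845-3913, + strand): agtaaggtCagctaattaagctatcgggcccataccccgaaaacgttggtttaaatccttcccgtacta

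Base 9 is A in 13 of the 22 genes, G in 6, C in 2 and T in 1. The 6 genes with G there had diet differences between 0.24 and 2.39 (median 0.91, 1 higher), and the 13 with A between −1.48 and 1.65 (median 0.03, 1 higher and 1 lower). Of the 2 with C, 1 was higher and 1 lower. By strand, the 8 genes on the − strand had a median of 1.32 with 3 higher and 1 lower. The 14 on the + strand had a median of 0.43 with 0 higher and 1 lower. Of all RNAs tested, 18.1% were higher and 4.38% lower. With scaling by miRNA reads 0 of the 22 mitochondrial tsRNAs were higher and 5 lower, and 20 of the 22 differences were negative. Neither the split by base 9 nor that by strand was tested. mt-Ser-TGA had 51.2, 32, 14.6 and 37.9 RPM in PANDORA-seq of HCD-fed mice, against 55.3, 34.5, 40.1, 32.3 and 41.1 RPM in PANDORA-seq of LCD-fed mice. The traditional-seq libraries held 74.5, 101, 26.2 and 19.4 RPM in HCD-fed mice, against 298, 329, 368, 292 and 362 RPM in LCD-fed mice. PANDORA-seq overlapped between the diets and traditional-seq did not. Its within-mouse difference was −0.53, −1.62, −0.80 and 0.93 in HCD-fed mice, against −2.41, −3.22, −3.17, −3.13 and −3.11 in LCD-fed mice (difference 2.50, standard error 0.54, limma adjusted p = 0.00168). mt-Gln-TTG differed by 2.39 and mt-Ala-TGC by 1.65 (limma adjusted p = 0.00319 and 0.029), also mainly in traditional-seq, and mt-Ala-TGC turned negative with scaling by miRNA reads (−0.04).

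mt-Met-CAT had 48.7, 37.9, 5.35 and 27.6 RPM in PANDORA-seq of HCD-fed mice, against 416, 407, 254, 296 and 399 RPM in PANDORA-seq of LCD-fed mice, without overlap. In traditional-seq it had 7.45, 11.9, 4.97 and 10.7 RPM in HCD-fed mice, against 15.5, 61.2, 20.6, 16.3 and 37.6 RPM in LCD-fed mice. For mt-Met-CAT the within-mouse difference was 2.56, 1.59, 0.09 and 1.29 in HCD-fed mice, against 4.66, 2.71, 3.56, 4.11 and 3.38 in LCD-fed mice (difference −2.30, limma adjusted p = 0.00397), so the Met families of both compartments were lower. mt-Glu-TTC had 2.53, 0.57, 0.41 and 1.90 in HCD-fed mice, against 2.45, 3.92, 2.39, 2.83 and 2.55 in LCD-fed mice (difference −1.48, limma adjusted p = 0.0394), opposite in sign to its cytosolic counterpart Glu-TTC. Its call was lost without HCD-fed mouse 16 or 17 or LCD-fed mouse 2, 4 or 5 (−1.55 to −1.16, limma adjusted p between 0.0550 and 0.181). mt-Ser-GCT, the most abundant mitochondrial tsRNA, had lower levels on the HCD in both library types, without overlap (log2 −2.51 in PANDORA-seq and −3.68 in traditional-seq), and its within-mouse difference did not pass (1.18, limma adjusted p = 0.129). mt-Gly-TCC (1.25), mt-His-GTG (0.43) and mt-Val-TAC (0.03) did not pass either. mt-Ser-GCT passed without HCD-fed mouse 16 (1.75, limma adjusted p = 0.0266), and mt-Gly-TCC without HCD-fed mouse 16 (1.53, adjusted p = 0.0408) or LCD-fed mouse 2 (1.47, adjusted p = 0.0403).

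Among fragments of ribosomal RNA, those of 18S rRNA, the RNA of the small cytosolic subunit, had a lower within-mouse difference on the HCD. 18S rRNA had 62604, 99447, 66721 and 56851 RPM in PANDORA-seq of HCD-fed mice, against 111444, 137532, 54048, 57564 and 92252 RPM in PANDORA-seq of LCD-fed mice. Its traditional-seq level was 15279, 44444, 10542 and 30586 RPM in HCD-fed mice, against 3267, 3887, 4155, 3264 and 4033 RPM in LCD-fed mice. PANDORA-seq overlapped between the diets, while in traditional-seq each HCD-fed mouse lay above each LCD-fed mouse. The within-mouse difference was 2.03, 1.16, 2.66 and 0.89 in HCD-fed mice, against 5.09, 5.14, 3.70, 4.14 and 4.52 in LCD-fed mice (difference −2.83, standard error 0.47, 95% interval −3.78 to −1.88, limma adjusted p = 7.45e-05), and −3.49 without HCD-fed mice 15 and 17 (adjusted p = 1.25e-05). 12S rRNA, of the small mitochondrial subunit, had 0.98, 0.13, −0.53 and 0.22 in HCD-fed mice, against 3.89, 1.87, 2.03, 2.06 and 1.64 in LCD-fed mice (difference −2.10, limma adjusted p = 0.00593), with a diet difference of −2.21 in PANDORA-seq and −0.11 in traditional-seq on the log2 scale, and it did not pass without HCD-fed mice 15 and 17 (−2.12, limma adjusted p = 0.0579). The other 6 did not pass: 45S (1.01), 5S (0.51), 5.8S (0.29), 16S (0.10), 28S (0.09) and 4.5S (−0.68). 45S rRNA passed without HCD-fed mouse 18 (1.39, limma adjusted p = 0.0422). 28S rRNA, the most abundant entry, had 2.09, 1.14, 1.09 and 0.67 in HCD-fed mice, against 1.24, 1.15, 1.41, 0.86 and 1.14 in LCD-fed mice, with a 95% interval of −0.74 to 0.91 for the difference. Fragments of the Y RNAs RNY3 and RNY1 differed by 0.56 and −0.39 (limma adjusted p = 0.48 and 0.636). The piRNA entry differed by 0.73 without overlap but did not pass among all RNAs (limma adjusted p = 0.226), although it passed above among the 7 classes.

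Of the 281 miRNAs, 50 were higher on the HCD (17.8%, against 18.1% of all RNAs tested) and 7 lower (2.49%, against 4.38%), with a median of 0.63, shares near those of all RNAs. With each mouse centred 4 were higher and 8 lower, and with scaling by miRNA reads 0 were higher and 12 lower. Without HCD-fed mice 15 and 17, 23 of the 50 higher and 1 of the 7 lower miRNAs kept their calls. The share of higher calls grew with the level: 9 of 140 miRNAs under 10 RPM, 16 of 75 between 10 and 100 RPM and 25 of 66 with at least 100 RPM, with medians of 0.35, 0.83 and 1.23. A pseudocount of 1 RPM pulls the values of rare RNAs toward 0, and 4 of the tested RNAs were at 0 in every PANDORA-seq library.

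Of the 12 entries on the let-7 list, which includes miR-98, 10 were higher on the HCD (83.3%, against 18.1% of all RNAs tested), with a median of 1.90. The copies of let-7a, let-7c and let-7f hold nearly the same values and are not separate observations. Of the 12, 3 passed with each mouse centred, 7 with TMM scaling, 5 without the pairing by mouse, 8 without HCD-fed mice 15 and 17 and 0 with scaling by miRNA reads, where let-7f-1, let-7f-2, let-7g and let-7i were negative. let-7b had 389, 265, 877 and 298 RPM in PANDORA-seq of HCD-fed mice, against 125, 25.0, 232, 164 and 83.8 RPM in PANDORA-seq of LCD-fed mice. Traditional-seq read 1858, 1115, 2097 and 785 RPM in HCD-fed mice, against 1798, 1551, 2774, 2900.2 and 2421 RPM in LCD-fed mice. The PANDORA-seq levels of the HCD-fed mice lay above those of the LCD-fed mice, while the traditional-seq levels overlapped. The within-mouse difference was −2.25, −2.07, −1.26 and −1.39 in HCD-fed mice, against −3.84, −5.90, −3.58, −4.14 and −4.84 in LCD-fed mice (difference 2.71, standard error 0.53, 95% interval 1.65 to 3.78, limma adjusted p = 0.000706; 2.73 without HCD-fed mice 15 and 17, adjusted p = 0.0157). let-7c-1 had −2.78, −2.45, −1.85 and −1.74 in HCD-fed mice, against −3.98, −5.90, −3.96, −4.67 and −4.94 in LCD-fed mice (difference 2.48, limma adjusted p = 0.00101), and let-7c-2, with the same mature sequence, 2.47. let-7k, not on the list, differed by 2.58 (limma adjusted p = 0.00101).

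The other members followed in the order let-7d (2.24), let-7e (2.06), let-7a-2 (1.91), let-7a-1 (1.90), let-7f-1 (1.56), let-7f-2 (1.54) and miR-98 (1.46). let-7g (1.36, 95% interval 0.26 to 2.47) and let-7i (1.04, 95% interval −0.05 to 2.13) were the 2 that did not pass, and the difference between them and the other members was not tested. let-7g had −5.89, −6.0, −6.17 and −4.00 in HCD-fed mice, against −5.52, −7.75, −6.82, −6.64 and −7.66 in LCD-fed mice, with HCD-fed mouse 18 above the other 3 HCD-fed mice, and passed without LCD-fed mouse 1 (1.70, limma adjusted p = 0.0255). let-7g had its diet difference in traditional-seq (log2 −1.43), with −0.06 in PANDORA-seq. let-7f-2 lost its call without HCD-fed mouse 18 or LCD-fed mouse 2, 4 or 5 (1.09 to 1.48, limma adjusted p between 0.0579 and 0.147).

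**Figure D5:**
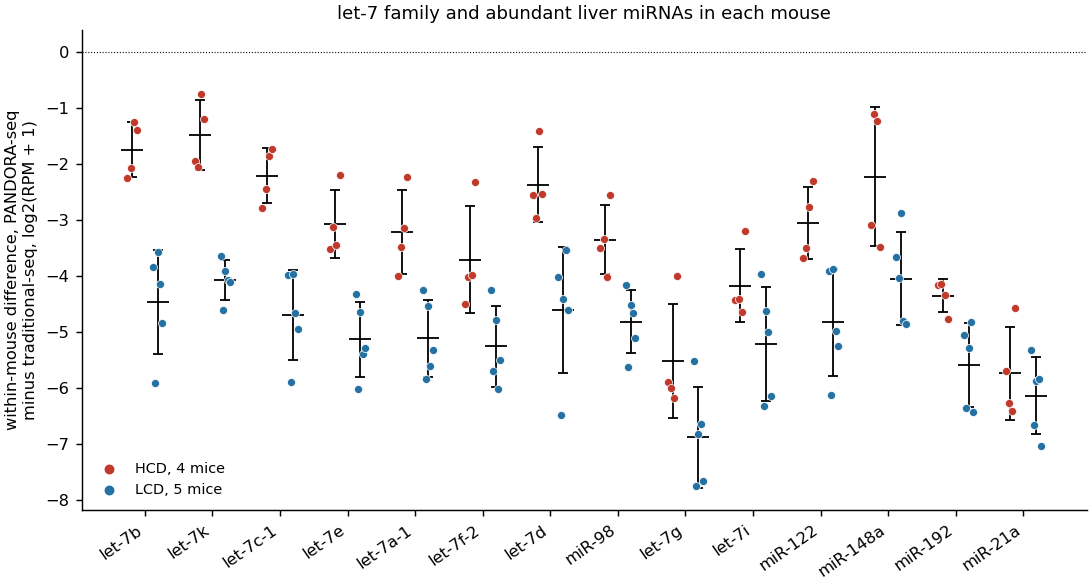
Each point is the within-mouse difference, PANDORA-seq minus traditional-seq in log2(RPM + 1), of 1 mouse (red, 4 HCD-fed; blue, 5 LCD-fed), with the mean and SD in black. Each mean lies below 0 and is higher on the HCD, from let-7b (−1.74 ± 0.49 on the HCD and −4.46 ± 0.93 on the LCD) to miR-21a (−5.73 ± 0.84 on the HCD and −6.14 ± 0.69 on the LCD), although the diet difference turns negative for let-7f-2, let-7g, let-7i, miR-192 and miR-21a with scaling by miRNA reads, and for miR-21a with centring.

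miR-122, known for its part in hepatocyte cholesterol and fatty acid metabolism, was higher on the HCD. miR-122 had 30284, 29874, 69554 and 30632 RPM in PANDORA-seq of HCD-fed mice, against 21639, 2581, 26469.9, 12032 and 6063 RPM in PANDORA-seq of LCD-fed mice. In traditional-seq it had 385384, 337833, 471040.0 and 150625 RPM in HCD-fed mice, against 323759, 180426, 385545, 378039 and 229369 RPM in LCD-fed mice. Each HCD-fed mouse lay above each LCD-fed mouse in PANDORA-seq, while the traditional-seq levels overlapped. The within-mouse difference was −3.67, −3.50, −2.76 and −2.30 in HCD-fed mice, against −3.90, −6.13, −3.86, −4.97 and −5.24 in LCD-fed mice, without overlap (difference 1.77, standard error 0.47, limma adjusted p = 0.00609; 1.92 without HCD-fed mice 15 and 17, adjusted p = 0.0224). For miR-122 the call was lost without the pairing by mouse (limma adjusted p = 0.0928), with TMM scaling (1.52, adjusted p = 0.0547), with each mouse centred (0.97, adjusted p = 0.189) and with scaling by miRNA reads (0.10, adjusted p = 0.94). miR-148a, which acts on the LDL receptor and ABCA1, had −3.08, −1.1, −1.23 and −3.48 in HCD-fed mice, against −3.66, −4.03, −2.87, −4.80 and −4.86 in LCD-fed mice (difference 1.82, limma adjusted p = 0.008), with overlap through HCD-fed mice 15 and 18, and lost its call under the same 3 scalings (1.58, 1.03 and 0.16). Of the 7 hepatocyte miRNAs on the list, these 2 were higher (28.6%, against 18.1% of all RNAs tested) and 0 were lower (median 1.23). None of the 7 was higher with TMM scaling (median 0.99), with each mouse centred (0.44) or with scaling by miRNA reads (−0.43, 5 of 7 negative). Their summed level was 53380 to 126038 RPM on the HCD and 11127 to 38297 RPM on the LCD in PANDORA-seq, and 457346 to 636159 RPM on the HCD and 372784 to 513752 RPM on the LCD in traditional-seq. miR-192 differed by 1.23 without overlap and did not pass (limma adjusted p = 0.0571), although it did without HCD-fed mouse 18 or LCD-fed mouse 1 or 4 (1.37, 1.37 and 1.43). Among 17 tested miRNAs of a list drawn up for cholesterol regulation, 6 were higher (35.3%, against 18.1% of all RNAs tested) and 0 lower (median 0.84). Of these 17, 0 were higher with each mouse centred (median 0.05) or with scaling by miRNA reads (−0.27).

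miR-183, also on this list, had −3.23, −1.17, −3.12 and −2.05 in HCD-fed mice, against −3.97, −5.13, −4.62, −5.26 and −5.53 in LCD-fed mice (difference 2.51, limma adjusted p = 0.00188). Its diet difference stood in traditional-seq, with 33.3 ± 33.1 RPM on the HCD and 168 ± 48.8 RPM on the LCD (SD, n = 4 and n = 5). In PANDORA-seq it had 4.38 ± 2.95 RPM on the HCD and 4.85 ± 2.53 RPM on the LCD (SD, n = 4 and n = 5). miR-365-2 was the reverse, with 20.3 ± 27.5 RPM on the HCD and 1.91 ± 1.12 RPM on the LCD in PANDORA-seq (SD, n = 4 and n = 5) and a difference of 2.32 (limma adjusted p = 0.00397), where HCD-fed mouse 17 set much of the mean with 61.5 RPM. miR-652 (2.39) and miR-150 (2.29) each had 1 PANDORA-seq library at 0 and rest on a few reads there. The diet difference of miR-652 stood in traditional-seq, with means of 14.1 RPM on the HCD and 152 RPM on the LCD. In PANDORA-seq its mean was also lower on the HCD (0.29 RPM) than on the LCD (1.04 RPM). The miR-30 family, abundant in many tissues, had 2 of 6 members higher (33.3%, against 18.1%; median 1.03), miR-30c-2 (1.87) and miR-30e (1.64, and −0.01 with scaling by miRNA reads), while miR-30a (1.25) and miR-30d (0.81) did not pass. None of the 6 was higher with each mouse centred (median 0.23) or with scaling by miRNA reads (−0.63, 5 of 6 negative). The same held with the depth covariate (median 0.95) and without HCD-fed mice 15 and 17 (0.92). miR-30a passed without HCD-fed mouse 18 (1.47, limma adjusted p = 0.0387) or LCD-fed mouse 1 (1.41, adjusted p = 0.0470). miR-143, a miRNA of smooth muscle and stellate cells, was higher by 1.45 (limma adjusted p = 0.0296), a call lost without HCD-fed mouse 15, 16 or 17 or LCD-fed mouse 2 or 5 (1.17 to 1.53, limma adjusted p between 0.0510 and 0.0961). miR-21a, a miRNA raised in many stressed tissues, did not pass (0.40, 95% interval −0.61 to 1.42). Chosen after their values were seen, miR-10a (2.18) and miR-10b (2.22), and miR-23a (2.34) and miR-23b (1.72), were pairs of near-identical miRNAs that were both higher, the miR-23 pair turning negative with scaling by miRNA reads (−0.35 and −0.28).

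The 7 miRNA entries that were lower on the HCD fell outside the naming rule and were chosen after their values were seen. They were miR-690 (−1.69), miR-3470b (−1.68), miR-6516 (−1.60), miR-682 (−1.57), miR-6236 (−1.42) and the copies miR-3084-1 and miR-3084-2 (−1.09 each). The mature sequence was found within a GENCODE transcript of another kind for 6 of these 7 (85.7%), against 10 of 40 higher miRNAs with a sequence (25.0%) and 83 of all 243 (34.2%), which is a description of entries chosen by their call. The sequence of miR-3084 lies in the snoRNAs Snora19 (chr19:60774334-60774354 on the - strand) and Gm23658 (chr19:24942240-24942260 on the - strand), that of miR-6516 in the scaRNA Gm26083 within Snhg20 (chr11:117077370-117077391 on the + strand), and that of miR-3470b in transcripts of 571 genes. miR-682 (chr13:75645119-75645139 on the + strand) matched transcripts of 9 genes, miR-690 (chr16:28599940-28599961 on the - strand) of 3 and miR-6236 (chr9:110281353-110281371 on the + strand) of 0. miR-690 had 70.7 ± 53.3 RPM on the HCD and 355 ± 278 RPM on the LCD in PANDORA-seq (SD, n = 4 and n = 5), and the other lower entries had lower means. miR-6236 had −0.31, −1.04, −0.56 and −0.61 in HCD-fed mice, against 0.84, 0.26, 0.91, 1.50 and 0.44 in LCD-fed mice, so traditional-seq read more of it than PANDORA-seq on the HCD and less on the LCD (limma adjusted p = 0.0148), at levels of a few RPM.

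Markers of other cell types in liver gave 6 higher calls among 24 tested entries (25.0%, against 18.1% of all RNAs tested), 4 of them pairs of near-copies, and their part in the results was not tested. Of 4 erythroid miRNAs 2 were higher, miR-486a (1.85) and its near-copy miR-486b, while miR-144 and miR-451a were at or near 0 in PANDORA-seq. Their summed level was 11 to 32.1 RPM on the HCD and 1.62 to 14.9 RPM on the LCD in PANDORA-seq, and 7.76 to 87.9 RPM on the HCD and 32.6 to 71.7 RPM on the LCD in traditional-seq. No erythroid miRNA was higher with TMM scaling, with each mouse centred or with scaling by miRNA reads. The same held without the pairing by mouse, with the depth covariate and without HCD-fed mice 15 and 17. Of 5 immune-cell miRNAs miR-150 alone was higher (summed level 2.67 to 15.8 RPM on the HCD and 3.85 to 10.2 RPM on the LCD in PANDORA-seq, and 78.2 to 614 RPM on the HCD and 164 to 783 RPM on the LCD in traditional-seq). Of 6 stellate and fibroblast miRNAs miR-143 alone was higher (317 to 648 RPM on the HCD and 167 to 355 RPM on the LCD in PANDORA-seq, and 4151 to 9126 RPM on the HCD and 5802 to 15818 RPM on the LCD in traditional-seq). The endothelial miR-126a (0.47) and the 5 biliary epithelial miRNAs (median 0.46) gave 0 calls. They summed to 13.9 to 40.3 RPM on the HCD and 16.9 to 38.2 RPM on the LCD, and to 6.11 to 10.1 RPM on the HCD and 3.33 to 9.26 RPM on the LCD, in PANDORA-seq. In traditional-seq miR-126a and its relative summed to 2182 to 3713 RPM on the HCD and 1945 to 6486 RPM on the LCD, and the biliary list to 121 to 273 RPM on the HCD and 154 to 484 RPM on the LCD. Of 3 tested muscle miRNAs the 2 entries of miR-1a, with equal values, were higher (2.53). Both lost the call with each mouse centred (1.74), with scaling by miRNA reads (2.03) and with the depth covariate (2.04). They kept it with TMM scaling (2.26) and without HCD-fed mice 15 and 17 (2.37). The summed list was at 0.560 to 12.5 RPM on the HCD and 0.335 to 3.13 RPM on the LCD in PANDORA-seq, and at 3.76 to 13.3 RPM on the HCD and 9.79 to 74.8 RPM on the LCD in traditional-seq.

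The other scalings lowered the median of all RNAs, which by itself keeps lower calls and removes higher ones. Of the 16 lower RNAs 14 were called under each scaling: 18S and 12S rRNA, the 5 cytosolic tsRNA families, mt-Met-CAT, mt-Glu-TTC, both copies of miR-3084, miR-3470b, miR-6516 and miR-682. Of the 66 higher RNAs 1 was called under each, tsRNA-His-GTG, and 6 when scaling by miRNA reads was left aside: His-GTG, Ala-CGC, let-7b, let-7c-1, let-7c-2 and let-7k. With scaling by miRNA reads 13 of the 66 turned negative, and with each mouse centred 0 did. The pairing by mouse also bore on the counts, which were 43 higher and 10 lower without it.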

How the data were processed

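Small RNA of 9 mouse livers was sequenced in 18 libraries, PANDORA-seq (T4PNK, then AlkB) and traditional-seq (untreated) of the same RNA. The authors annotated reads with SPORTS against mm10, tolerating 1 mismatch, and deposited RPM values per RNA, summed over its fragments. Adapter trimming and the handling of reads that match several RNAs are not given in the sources used here. RPM hides absolute amounts, since each library has a fixed total. Counts were not recovered: 67.6% to 81.7% of values under 3 RPM were whole reads within 0.02 read, so no count test was run. Empty cells (11673) were read as 0. Read totals and depth ratios were inferred from the RPM of 1 read, 0.0392 to 0.517 RPM, which is the step below which a level could not be measured.

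Values were taken as log2(RPM + 1) for the 365 RNAs that reached 1 RPM in 4 or more libraries. Folds on this scale understate changes of low RNAs. Within-mouse differences were tested by diet with limma 3.58.1 (R 4.3.3) with a mean-variance trend, and p-values were adjusted by Benjamini-Hochberg over 365 RNAs, with 0.05 as the threshold. Class sums and ratios were compared by two-sided exact permutation, with p-values adjusted over 7 classes, 3 class ratios and 2 ratios of tsRNA-Glu-CTC. The script was tested on simulated data. Mice pair the libraries because the study's methods state that both were made from the same RNA. Deviations from the group means of paired libraries correlated at 0.0858 to 0.397, over 0.1 in 8 of 9 mice. In 5 of 9 mice no library of another mouse correlated more closely. Alternatives were scaling by TMM (trims of 30% and 5%), by miRNA reads, by all listed RNAs and by centring each mouse, pseudocounts of 0.5 and 5 RPM, no filter, a mean of at least 10 RPM, no pairing, other limma settings, and leaving out each mouse. The depth ratio as a covariate and the fits without HCD-fed mice 15 and 17 were chosen after seeing the data.

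The RNAs named are each rRNA, Y RNA and piRNA entry; the 10 cytosolic tsRNAs, 5 mitochondrial tsRNAs and 10 miRNAs of highest mean; tsRNA Leu-CAG, Ser-GCT, Arg-ACG and Asp-GTC; up to 8 per class and direction with the largest differences among called RNAs of at least 10 RPM in a group and without overlap; and 2 to 4 examples from each list. The members and lists were chosen with earlier results of these data known. Python 3.11.15, numpy 2.4.6, pandas 2.3.3 and matplotlib 3.10.9 were used. Sequences were read from RefSeq and GENCODE files of GRCm38, and 47 of 51 cytosolic families matched annotated tRNA genes.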

Additional observations from a re-analysis of the deposited data

Results flagged for a closer look

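Among 128 groups of mice examined, 11 held a mouse whose within-mouse difference stood apart from its group by Dixon's test, where chance gives about 1 in 20. In LCD-fed mouse 1 these were 16S rRNA at 2.17 (the other LCD-fed mice at 0.41 to 0.71), 12S rRNA at 3.89 (1.64 to 2.06), mt-Ser-GCT at −1.24 (−3.15 to −2.83) and mt-Ser-TGA at −2.41 (−3.22 to −3.11), all encoded in the mitochondrial genome. In LCD-fed mouse 2 mt-Glu-TTC was at 3.92 (2.39 to 2.83) and tsRNA-Arg-TCT at 1.16 (2.93 to 3.33). In LCD-fed mouse 4 tsRNA-Gly-GCC was at −0.43 (−1.51 to −1.34) and 4.5S rRNA at 1.02 (1.42 to 1.54). In HCD-fed mouse 18 let-7g was at −4.00 (the other HCD-fed mice at −6.17 to −5.89) and miR-30a at −4.90 (−4.05 to −3.92), and in HCD-fed mouse 16 RNY3 was at 0.62 (2.18 to 2.46).

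Differences between the diets stood out where the within-mouse difference turned in sign on the RPM scale or where a whole class moved. On that scale tsRNA-Ala-CGC was higher in PANDORA-seq in 4 of 4 HCD-fed mice and lower in 5 of 5 LCD-fed mice. The difference was 3.23 (limma adjusted p = 7.45e-05), and 1.57 with scaling by miRNA reads (limma adjusted p = 0.0851). The class sums differed by 1.66 for miRNAs (adjusted p = 0.0278), 1.67 for cytosolic tsRNAs, 0.73 for the piRNA entry and 0.11 for all listed RNAs (adjusted p = 0.0185 each, exact permutation tests). The ratio of rsRNA to miRNA differed by −1.71 and that of cytosolic tsRNA to rsRNA by 1.71 (adjusted p = 0.0476 each, exact permutation tests).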

How the results depend on the processing

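With TMM scaling 40 RNAs were higher, with scaling by miRNA reads 1 higher and 37 lower, with each mouse centred 6 higher, with no filter 9 higher and 1 lower among 1181 RNAs tested, with the depth ratio as a covariate 28 higher and 7 lower, and without HCD-fed mice 15 and 17 28 higher and 6 lower. Without the replicate block, which ignores the pairing by mouse, 43 were higher and 10 lower, all among the RNAs called with it. Leaving out 1 mouse gave 48 to 72 higher and 9 to 18 lower, with 9 lower without HCD-fed mouse 17 and 10 without LCD-fed mouse 5. With each mouse also centred, leaving out 1 mouse gave 4 to 13 higher and 13 to 23 lower. tsRNA-Glu-CTC no longer passed with scaling by miRNA reads (0.38), with centring (1.25), with no filter (2.04), with the depth covariate (1.39) and without HCD-fed mice 15 and 17 (1.27). Without these 2 mice the class differences were 1.68 for miRNAs, 1.03 for cytosolic tsRNAs, 0.46 for the piRNA entry and 0.12 for all listed RNAs, and the ratio differences were −0.65 for cytosolic tsRNA to miRNA, −2.13 for rsRNA to miRNA, 1.48 for cytosolic tsRNA to rsRNA, −0.66 for tsRNA-Glu-CTC to miR-122 and −0.41 for tsRNA-Glu-CTC to miRNA. With the median over a class in place of its sum the 3 class ratios differed by −0.61, −0.47 and −0.14.

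The direction turned with scaling by miRNA reads for piRNA (−0.93), 45S rRNA (−0.66), 5S rRNA (−1.15), 5.8S rRNA (−1.37), 16S rRNA (−1.57), 28S rRNA (−1.58), RNY3 (−1.09), Asp-GTC (−1.51), mt-Ser-GCT (−0.49), mt-His-GTG (−1.23), mt-Gly-TCC (−0.42), mt-Val-TAC (−1.63), miR-192 (−0.43), miR-21a (−1.26), let-7g (−0.30), miR-143 (−0.21), miR-30a (−0.41), let-7f-2 (−0.11), Ser-GCT (−1.67) and Arg-ACG (−1.52); with centring for piRNA (−0.063), 5S rRNA (−0.28), 5.8S rRNA (−0.50), 16S rRNA (−0.70), 28S rRNA (−0.70), RNY3 (−0.23), Asp-GTC (−0.64), mt-His-GTG (−0.36), mt-Val-TAC (−0.76), miR-21a (−0.39), Ser-GCT (−0.79) and Arg-ACG (−0.64). It turned with TMM scaling for 16S rRNA (−0.15), 28S rRNA (−0.16), Asp-GTC (−0.093), mt-Val-TAC (−0.21), Ser-GCT (−0.18) and Arg-ACG (−0.059), with scaling by all listed RNAs for 16S rRNA (−0.014), 28S rRNA (−0.023), mt-Val-TAC (−0.077) and Ser-GCT (−0.11), with a pseudocount of 0.5 RPM for the within-mouse difference of Ser-GCT (−0.0023), with the depth covariate for 5S rRNA (−0.35), 28S rRNA (−0.056), RNY3 (−0.049), Asp-GTC (−1.02), Ser-GCT (−0.55) and Arg-ACG (−0.70), and without HCD-fed mice 15 and 17 for 5S rRNA (−0.22), 5.8S rRNA (−0.13), 16S rRNA (−0.13), 28S rRNA (−0.25), Asp-GTC (−0.66), mt-Val-TAC (−0.23), Ser-GCT (−0.41) and Arg-ACG (−0.34). Leaving out 1 mouse gave the ranges 16S rRNA (−0.028 to 0.41), 28S rRNA (−0.19 to 0.28), Asp-GTC (−0.29 to 1.05), mt-Val-TAC (−0.34 to 0.57), Ser-GCT (−0.23 to 0.42), Arg-ACG (−0.28 to 0.58), class sum of miRNA (1.47 to 1.87), class sum of rsRNA (−0.28 to 0.13), class sum of cytosolic tsRNA (1.38 to 1.98), class sum of piRNA (0.57 to 0.91), class sum of all listed RNAs (0.094 to 0.12), cytosolic tsRNA to miRNA (−0.33 to 0.40), rsRNA to miRNA (−2.15 to −1.52), cytosolic tsRNA to rsRNA (1.45 to 1.95) and tsRNA-Glu-CTC to miR-122 (−0.068 to 0.67). For 56 named RNAs, 458 of 504 values with 1 mouse left out kept their direction and side of the threshold, 18 turned, 18 lost and 10 gained a call. Other limma settings changed none of the 56. The cause of these changes was not tested, except that no filter adds RNAs to the adjustment and leaving out mice removes samples. Depth limits RNAs under about 1 RPM, where 1 read is worth up to 0.517 RPM.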
